A study of Homo sapiens with 4 samples.

Results

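The messages of 42 genes of the DNA replication machinery were examined, from origin recognition to the joining of Okazaki fragments. The genes were listed by function and matched on their symbol, and all 42 were found among 61543 genes of the count table. The 4 libraries hold RNA of the medium around HEK293T cells, a line derived from human embryonic kidney. In 2 libraries the cells released EPN24-Cas13d, a nanocage-forming protein fused to the RNA-binding CRISPR protein Cas13d, and in 2 they released EPN24 without Cas13d. The labels name no guide RNA, no dose and no harvest time, and RNA inside the nanocages cannot be told apart from other RNA of the supernatant. In such bulk samples fewer cells of a type and less RNA per cell cannot be told apart either. Whether replicates are separate cultures is not stated in the labels, and p-values then measure only how far these libraries spread, which may be technical.

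Replication begins when the origin recognition complex marks a DNA site. CDC6 and CDT1 then load the ring of MCM2 to MCM7 there, and geminin (GMNN) restrains CDT1 so that no site is used again in the same cycle. CDC45 and the GINS complex turn the ring into an active helicase, primase-polymerase alpha lays down primers, and polymerases delta and epsilon extend them on the sliding clamp PCNA, which the RFC complex loads. RPA covers single-stranded DNA, and FEN1 and LIG1 finish the lagging strand. Many of these genes are expressed most strongly around the start of S phase in dividing cells.

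The 3 members with the highest and the 3 with the lowest fold change are represented by the 90 bases at the middle of their coding sequence, because base composition differed between the members that were higher and those that were lower. The sequences are those of GENCODE release 29 (GRCh38), 5′ to 3′, and capitals mark G and C. In GRCh38 the 6 genes lie on chromosome 7 (MCM7, 100092728 to 100101940, minus strand), 6 (MCM3, 52264014 to 52284881, minus), 16 (CDT1, 88803789 to 88809258, plus), 7 (RPA3, 7636518 to 7718607, minus), 20 (PCNA, 5114953 to 5126626, minus) and 2 (ORC4, 147930396 to 148021604, minus).
MCM7, bases 1033 to 1122: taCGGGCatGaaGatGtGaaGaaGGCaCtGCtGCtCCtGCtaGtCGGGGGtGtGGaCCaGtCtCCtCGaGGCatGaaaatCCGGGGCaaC
MCM3, bases 1234 to 1323: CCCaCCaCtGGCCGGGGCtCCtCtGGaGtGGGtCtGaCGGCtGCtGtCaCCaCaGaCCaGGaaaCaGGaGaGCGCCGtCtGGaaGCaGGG
CDT1, bases 775 to 864: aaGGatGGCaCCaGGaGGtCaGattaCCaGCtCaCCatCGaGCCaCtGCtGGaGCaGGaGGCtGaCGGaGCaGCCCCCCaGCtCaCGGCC
RPA3, bases 136 to 225: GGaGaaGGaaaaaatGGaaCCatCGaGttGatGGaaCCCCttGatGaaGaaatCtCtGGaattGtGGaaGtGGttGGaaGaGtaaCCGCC
PCNA, bases 346 to 435: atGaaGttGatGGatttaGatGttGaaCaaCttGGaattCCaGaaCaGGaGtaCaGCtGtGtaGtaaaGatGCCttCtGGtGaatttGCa
ORC4, bases 610 to 699: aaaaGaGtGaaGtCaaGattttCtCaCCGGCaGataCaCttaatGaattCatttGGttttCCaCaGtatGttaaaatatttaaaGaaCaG
G and C made up 52, 60 and 58 of the 90 bases in MCM7, MCM3 and CDT1, and 41, 35 and 28 in RPA3, PCNA and ORC4. Over the whole coding sequence the GC content was 55.7%, 53.2% and 68.3% in the former and 44.1%, 46.5% and 36.8% in the latter.

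Depth came to 5097332 and 4863449 gene counts for EPN24-Cas13d, and to 1830860 and 1903492 for EPN24. Levels are given as CPM, a gene's counts brought to a common library total with TMM factors. A floor of 3 counts was worth 0.721 and 0.755 CPM with Cas13d, 1.34 and 1.42 CPM without. Log2 fold changes (EPN24-Cas13d over EPN24) are on this scale, with an approximate standard error, and a member is called at an adjusted p below 0.05 in the quasi-likelihood test of edgeR, adjusted by Benjamini-Hochberg over 20476 tested genes. Scaling instead to the synthetic ERCC RNA added before extraction compares RNA per volume of supernatant, and it shifted the typical tested gene by 3.34 on the log2 scale (median). Of 8 HEK293T markers fixed for a check, all had counts in every library, led by VIM at 1804 and 1820 CPM with Cas13d and 125 and 157 without. Of these markers 5 were higher, NEFM (-1.42) and LIN28B (-3.48) were lower and PAX2 (-0.71) was not called. Among all tested genes 32.6% were higher and 48.2% lower. Of 10 markers of blood, liver, fibroblast and endothelium, 7 were tested and 6 were lower with TMM scaling. With ERCC scaling none was lower and 2 were higher, where 58.4% of all tested genes were higher. The summed level of the 10 markers was 21.6 and 32.7 CPM with Cas13d and 83.4 and 76.2 CPM without, and HBA1 was at 0 in all libraries. COL1A1, of fibroblasts, was the highest of them, at 18.3 and 25.7 CPM with Cas13d and 32.1 and 34.6 without. The part of these markers in the results was not tested.

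Replication messages took a larger share of the RNA in EPN24-Cas13d supernatant, yet the members moved in both directions. Their summed level was 11130 and 11286 CPM with Cas13d against 1925 and 2018 CPM without, a ratio of 5.69. The two-sided exact permutation p was 0.333, which no design of 2 against 2 can go below. As a share of all gene counts the members held 0.908% and 0.922% against 0.236% and 0.224%. Relative to ERCC counts the ratio of the sums was 58.5.

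Of the 42 members, all tested, 21 were higher, 16 were lower and 5 were not called. Among all tested genes 80.9% were called, 32.6% higher and 48.2% lower, or 37.0% and 42.9% of the 15507 protein-coding ones. The members' median log2 fold change was 0.62, beside -0.96 for all tested genes and -0.40 for the protein-coding ones. With a stricter filter on low counts the members' median turned to -0.07, beside 0.02 for all genes tested there. That filter kept 40 members, 16 higher and 16 lower, where 82.4% of 11735 genes were called, 40.7% higher and 41.7% lower. With a background per kb subtracted the members' median turned to -0.09, beside -0.11 for all genes tested there. In that setting 16 members were higher and 17 lower, where 70.6% of genes were called, 33.9% higher and 36.7% lower. With ERCC scaling 33 members were higher, 1 was lower and 8 were not called, where 60.7% of all tested genes were called, 58.4% higher and 2.33% lower. All 21 members higher with TMM scaling were among the 33, as were the 5 not called and 7 of the 16 lower ones. The values of the 2 groups did not overlap for 41 of the 42 members in CPM, the exception being POLE3, and for 91.2% of tested genes.

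**Figure D1:**
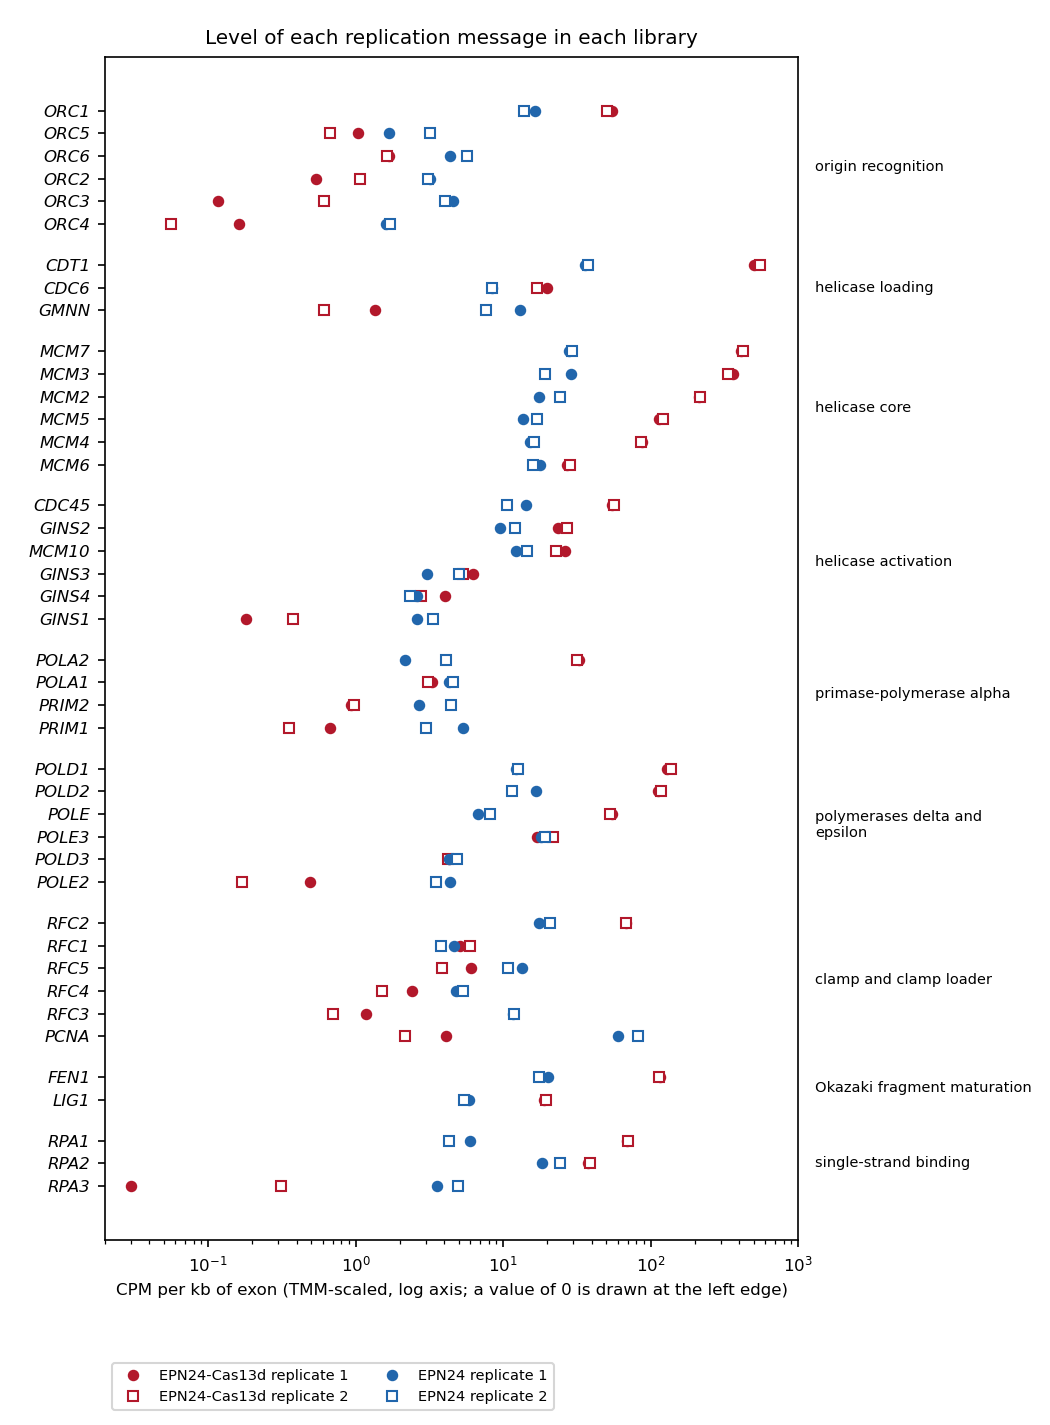
Level of each of the 42 replication messages in each of the 4 libraries, as TMM-scaled CPM per kb of exon on a log axis, grouped by role; red points are EPN24-Cas13d, blue points EPN24, filled circles replicate 1 and open squares replicate 2, and a value of 0 is drawn near the left edge. The EPN24-Cas13d points spread from 0 for RPA3 to over 500 for CDT1, while the EPN24 points lie between about 1.6 for ORC4 and about 82 for PCNA.

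In the origin recognition complex, ORC1 was the only one of the 6 subunit messages that was higher, and ORC2 to ORC6 were lower with TMM scaling. ORC1, the cell-cycle regulated largest subunit, measured 172 and 157 CPM with Cas13d and 51.7 and 43.1 without, a log2 fold change of 1.79 (SE 0.16). ORC4, a core ATPase subunit, measured 1.44 and 0.503 CPM against 14.3 and 15.1, a log2 fold change of -3.85 (SE 0.62). These correspond to 6 and 2 counts with Cas13d, so the ratio rests on few reads. The summed counts of ORC4 give a log2 ratio of -3.90. Its 95% exact binomial interval, which treats each count as a separate read, was -5.17 to -2.84. ORC6, which also acts in cell division, measured 7.21 and 7.05 CPM against 18.7 and 24.6. Both EPN24 libraries were above both others, and 91.2% of tested genes had no overlap in either direction. ORC3 (-3.54), ORC2 (-1.96), ORC6 (-1.60) and ORC5 (-1.49) were lower as well. With ERCC scaling ORC2, ORC5 and ORC6 turned to higher (1.39, 1.88 and 1.77), while ORC3 (-0.21) and ORC4 (-0.54) were not called. With the GC trend removed ORC2 (-0.19) and ORC5 (0.09) were not called, leaving 3 lower. The call of ORC5 also ended without EPN24-Cas13d replicate 2 (-1.16, adjusted p = 0.155) and without EPN24 replicate 2 (-1.04, adjusted p = 0.210, edgeR with Benjamini-Hochberg adjustment).

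Among the helicase loading factors, CDT1 and its inhibitor geminin lay at opposite ends. CDT1 measured 1380 and 1513 CPM with Cas13d and 99.9 and 103 CPM without, a log2 fold change of 3.83 (SE 0.12, adjusted p = 2.55e-12 by edgeR). At 524 CPM per kb it was the most abundant member for its length in EPN24-Cas13d. GMNN measured 3.37 and 1.51 CPM against 32.1 and 18.9, a log2 fold change of -3.36 (SE 0.47), or -0.05 and not called with ERCC scaling. In EPN24 these 2 messages stood at 36.8 and 10.3 CPM per kb, and in EPN24-Cas13d at 524 and 0.985. CDC6, the loading ATPase, lay between them with 105 and 89.6 CPM against 44.6 and 45.0, a log2 fold change of 1.12 (SE 0.18). With the GC trend of all tested genes removed, CDT1 was at 1.30, CDC6 at 1.80 and GMNN at -2.33, all still called. CDC6 was then the most positive of these factors. The call of CDC6 ended under the stricter filter (0.26) and after background subtraction (0.29).

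In the helicase core, all 6 subunits of the MCM2 to MCM7 ring were higher, with the size of the difference running from 1.65-fold for MCM6 to 14.5-fold for MCM7. MCM7 measured 1788 and 1867 CPM with Cas13d and 123 and 129 without, a log2 fold change of 3.86 (SE 0.11, adjusted p = 1.72e-12 by edgeR). MCM3 measured 1327 and 1214 CPM against 105 and 70.1, a log2 fold change of 3.85 (SE 0.15). MCM2 (3.35), MCM5 (2.96) and MCM4 (2.46) followed. MCM6 measured 112 and 118 CPM against 73.1 and 66.3, a log2 fold change of 0.72 (SE 0.15, adjusted p = 0.000766 by edgeR). The groups of all 6 genes were apart, as they were for 91.2% of tested genes, but the difference in MCM6 was small beside the others. Together the ring and CDT1 held 63.4% and 64.0% of all counts on the 42 members with Cas13d and 35.8% and 35.7% without. The direction of MCM6 depended on scaling, at -0.14 under the stricter filter and -0.18 after background subtraction, neither called, 0.15 and not called with total counts, and 4.08 with ERCC scaling. With the GC trend removed MCM2, MCM5 and MCM7 moved down to 1.84, 1.65 and 2.44 and MCM6 up to 1.85, and all 6 were still higher.

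Among the factors of helicase activation, CDC45, GINS2 and MCM10 were higher, GINS1 was lower, and GINS3 and GINS4 were not called. CDC45, the partner that joins MCM and GINS in the active helicase, measured 163 and 167 CPM against 42.8 and 31.7, a log2 fold change of 2.14 (SE 0.17). GINS2 measured 75.5 and 87.1 CPM against 30.8 and 38.8 (1.23, SE 0.20). MCM10, needed to start the helicase, measured 144 and 124 CPM against 66.9 and 79.1 (0.88, SE 0.16). In each of these 3 genes both EPN24-Cas13d libraries exceeded both EPN24 libraries, where 91.2% of tested genes had no overlap in either direction. GINS1 measured 1.44 and 3.02 CPM against 21.0 and 27.0, a log2 fold change of -3.41 (SE 0.46), or -0.05 and not called with ERCC scaling. GINS3 had a log2 fold change of 0.53 (SE 0.29) and GINS4 of 0.46 (SE 0.34). The 4 GINS proteins form a complex in equal numbers, and their messages in EPN24-Cas13d ranged from 25.3 CPM per kb for GINS2 to 0.278 for GINS1. The calls of GINS2 and MCM10 ended with the stricter filter (0.37 and 0.02) and after background subtraction (0.38 and 0.00), and that of MCM10 with total counts (0.31). GINS3 was called higher without EPN24 replicate 2 (0.85), without a filter (0.89) and with the GC trend removed (1.55), and both GINS3 and GINS4 with ERCC scaling (3.90 and 3.81).

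**Figure D2:**
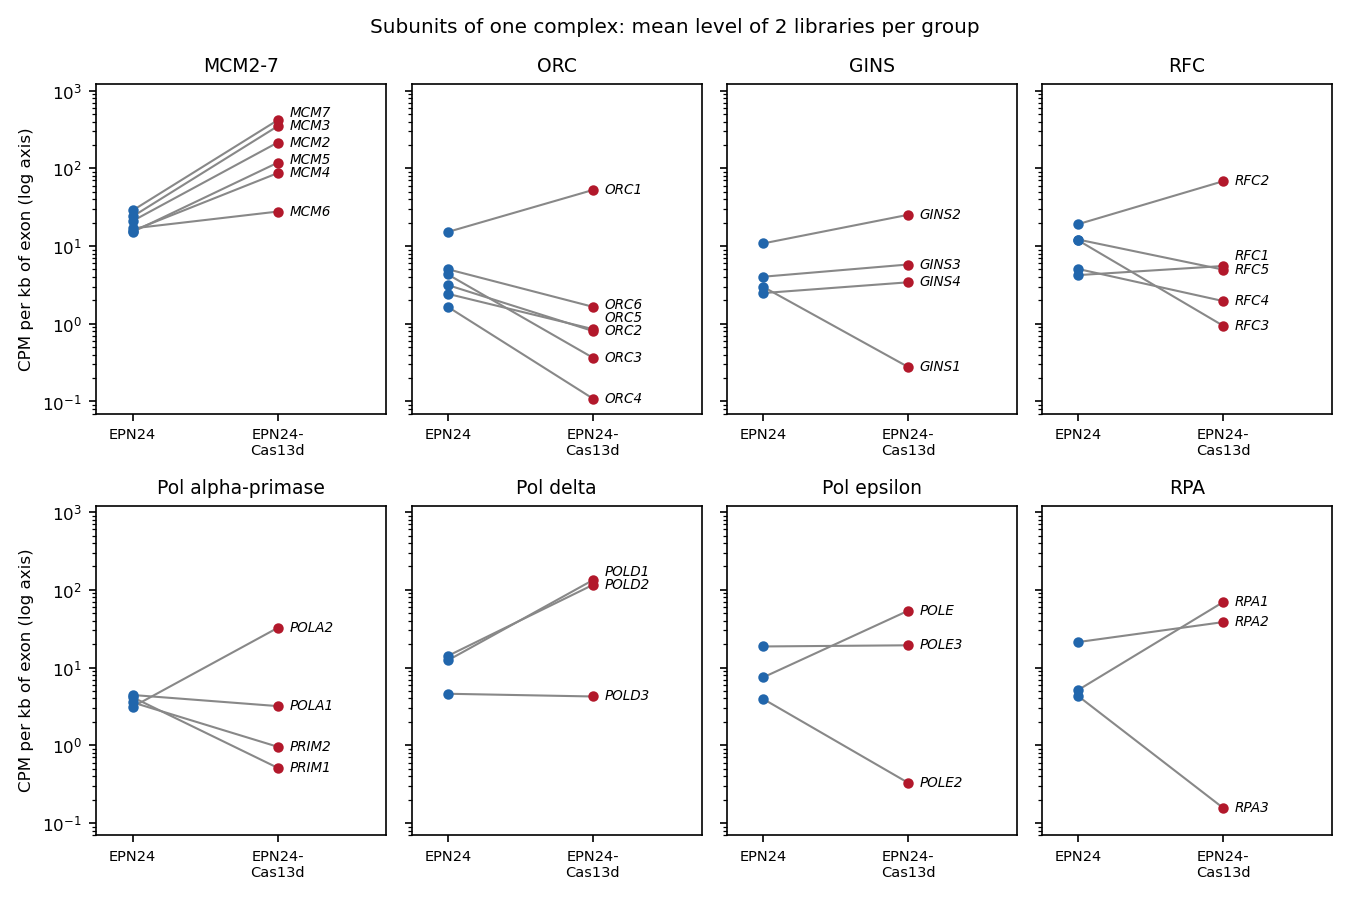
Mean level of each subunit message in EPN24 (blue) and EPN24-Cas13d (red), as TMM-scaled CPM per kb of exon on a log axis, in 8 panels of 1 complex each; lines join the values of a gene and each point is the mean of 2 libraries. The subunits of each complex lie further apart in EPN24-Cas13d than in EPN24: MCM2 to MCM7 span 27.8 to 417 against 15.2 to 28.8 CPM per kb. The origin recognition complex, already 9.21-fold apart in EPN24, is 483-fold apart in EPN24-Cas13d. EPN24 levels hold more background per kb, and its part in these ratios was not tested.

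In primase-polymerase alpha, POLA2, the regulatory subunit of polymerase alpha, was higher, and the other 3 messages of the complex were lower with TMM scaling. POLA2 measured 183 and 177 CPM against 12.0 and 22.7, a log2 fold change of 3.38 (SE 0.22). PRIM1, the catalytic primase subunit, measured 1.92 and 1.01 CPM against 15.2 and 8.52 (-2.98, SE 0.63). POLA1, the catalytic polymerase, measured 51.0 and 48.3 CPM against 66.5 and 71.5 (-0.47, SE 0.18). In EPN24 the means of the 4 messages lay within 3.12 and 4.44 CPM per kb, a ratio of 1.42, or 2.46 and 1.54 in the single libraries. The lowest was POLA2 (2.16) in replicate 1 and PRIM1 (2.98) in replicate 2. In EPN24-Cas13d they ran from 0.513 for PRIM1 to 32.4 for POLA2, a ratio of 63.1. PRIM2, which helps primase start, had a log2 fold change of -1.88. With ERCC scaling POLA1 and PRIM2 turned to higher (2.89 and 1.49) and PRIM1 was at 0.32, not called. The POLA1 call ended on leaving out either EPN24-Cas13d library (edgeR adjusted p of 0.290 and 0.381) and turned to higher with the GC trend removed (0.70). With that trend removed PRIM1 (-1.34) and PRIM2 (-0.41) were not called either, leaving 2 of the 4 messages higher and 0 lower. POLA2 shares 36.1% of its exon bases with ENSG00000285816 on the same strand and PRIM1 12.7% with ENSG00000285625, so these counts are uncertain.

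For polymerases delta and epsilon, POLE and POLD1, which encode the catalytic subunits, were both higher, as was POLD2, while POLE2 was lower and POLD3 and POLE3 were not called. POLD1 (chromosome 19, 50384204 to 50418018, plus strand) measured 637 and 679 CPM against 60.2 and 62.0, a log2 fold change of 3.43 (SE 0.13). POLD2 measured 417 and 436 CPM against 62.0 and 42.1 (3.03, SE 0.16). POLE had a log2 fold change of 2.85 (SE 0.12). POLE2 measured 1.44 and 0.503 CPM against 12.9 and 10.4 (-3.52, SE 0.68), or -0.23 and not called with ERCC scaling. POLE3, a small histone-fold subunit, measured 44.2 and 56.6 CPM against 47.3 and 50.2, with the EPN24 values inside the range of the others. The interval from its summed counts, each taken as a separate read, was -0.20 to 0.29 on the log2 scale. POLD3 had a log2 fold change of -0.11 (SE 0.26). POLE3 and POLD3 were called lower with total counts (-0.52 and -0.68), under the stricter filter (-0.81 and -0.97) and after background subtraction (-0.85 and -0.83), and higher with ERCC scaling (3.41 and 3.25) and with the GC trend removed (0.63 and 1.03). POLD1 was at 0.89 with the GC trend removed.

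The sliding clamp PCNA had the most negative log2 fold change after RPA3 and was the only member lower with both TMM and ERCC scaling. PCNA (ENSG00000132646.11) measured 5.77 and 3.02 CPM with Cas13d and 84.7 and 115 CPM without, from 24 and 12 against 190 and 242 counts. The log2 fold change was -4.48 (SE 0.29, adjusted p = 4.68e-09 by edgeR), a 22.3-fold difference. For its length PCNA was the most abundant of the 42 messages in EPN24, at 71.0 CPM per kb, and ranked 29 of 42 in EPN24-Cas13d, at 3.13. Scaled to ERCC counts in the way that CPM is to gene counts, PCNA stood at 268 and 146 in EPN24-Cas13d and at 427 and 481 in EPN24. With ERCC scaling its log2 fold change was -1.12 (SE 0.35, adjusted p = 0.0155 by edgeR). That call ended without EPN24-Cas13d replicate 2 (-0.76, adjusted p = 0.261), in a fit chosen after the data were seen, and the authors' deposited table gives PCNA a log2 fold change of -1.15 with an adjusted p of 0.0784. No exon base of PCNA is shared with another annotated gene of the table.

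In the clamp loader, RFC2 was higher, RFC3, RFC4 and RFC5 were lower with TMM scaling, and RFC1, the large subunit, was not called. RFC2 measured 151 and 151 CPM against 38.8 and 45.9 (1.84, SE 0.16). RFC1 measured 34.1 and 40.3 CPM against 31.2 and 25.6 (0.39, SE 0.24), and it was called higher without a filter (0.75), with the GC trend removed (1.82) and with ERCC scaling (3.74). RFC3 had a log2 fold change of -3.62, RFC4 of -1.36 and RFC5 of -1.28. The clamp loader holds 1 copy of each of its 5 subunits, and the highest and lowest of their messages differed 4.53-fold per length in EPN24 and 72.7-fold in EPN24-Cas13d. With ERCC scaling RFC4 and RFC5 turned to higher (1.99 and 2.06) and RFC3 was not called (-0.29). The calls of RFC4 and RFC5 ended without EPN24-Cas13d replicate 2 (adjusted p = 0.121 and 0.054 by edgeR) and with the GC trend removed (-0.67 and -0.41). Among PCNA and the loader, 4 messages were lower with all libraries and 2 without that library.

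In Okazaki fragment maturation and single-strand binding, FEN1, LIG1, RPA1 and RPA2 were higher, and RPA3 was lower. FEN1, the flap nuclease, measured 256 and 252 CPM against 44.2 and 38.8 (2.61, SE 0.15). LIG1, the ligase that seals the nicks, measured 124 and 129 CPM against 38.4 and 35.5 (1.78, SE 0.17). For both genes the EPN24-Cas13d libraries lay close together and above both EPN24 libraries, where 91.2% of tested genes had no overlap in either direction. RPA1, the large DNA-binding subunit, measured 381 and 385 CPM against 33.0 and 23.7, a log2 fold change of 3.75 (SE 0.16). RPA2 measured 75.0 and 77.5 CPM against 36.1 and 48.3 (0.86, SE 0.20). RPA3, the smallest subunit, measured 0 and 1.01 CPM against 11.6 and 16.1, a log2 fold change of -4.70 (SE 0.81), or -1.41 and not called with ERCC scaling. RPA3 thus had 4 rounded counts in EPN24-Cas13d against 60 in EPN24, a log2 ratio of -4.81 with a 95% exact binomial interval of -6.73 to -3.38. Without EPN24-Cas13d replicate 2 the remaining library was at 0. Taking 3 counts as the floor, RPA3 in that library alone was at least 19.2-fold below the EPN24 mean. Without EPN24-Cas13d replicate 1 the log2 fold change was -3.66, a smaller difference, so this bound does not hold for replicate 2. The interval and this bound treat each count as a separate read. RPA2 was at 0.52 without EPN24 replicate 1, and it was not called with total counts (0.29), with the stricter filter (-0.00) or with background subtracted (-0.04).

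**Figure D3:**
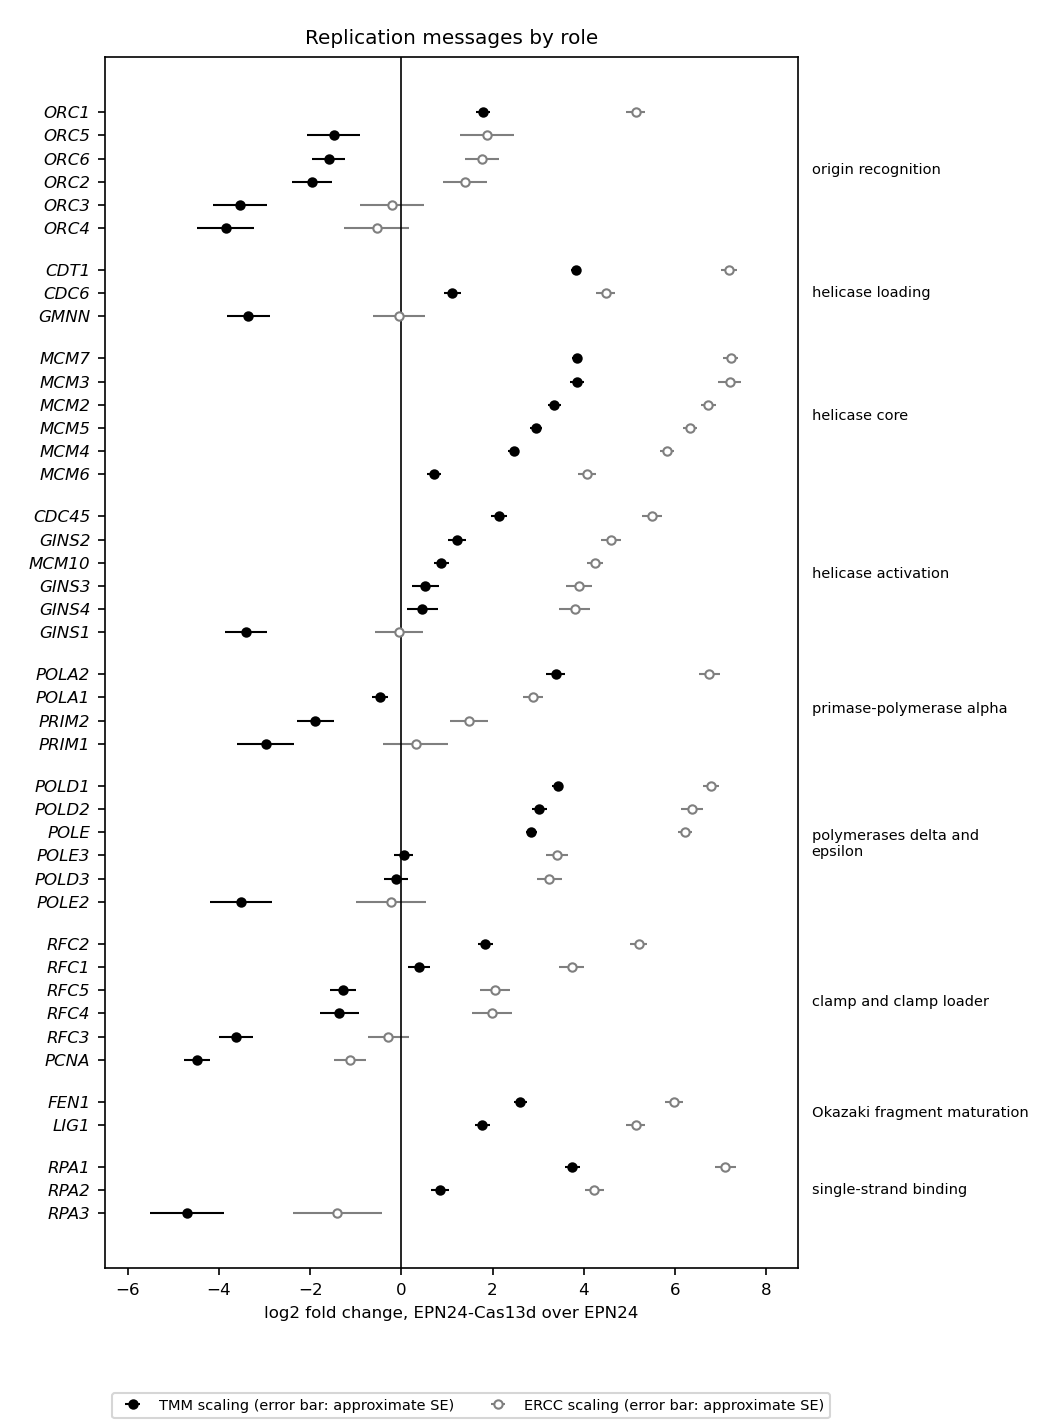
Log2 fold change of each member with TMM scaling (black) and with ERCC scaling (open grey), with approximate standard errors, grouped by role. Every role with more than 2 members except the helicase core holds both positive and negative TMM values, and the ERCC values lie to the right of the TMM values, leaving only PCNA called below 0.

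Members of 1 complex stood further apart in EPN24-Cas13d than in EPN24. The highest and the lowest message per length differed 1.89-fold in EPN24 and 15.0-fold in EPN24-Cas13d for MCM2 to MCM7, and 9.21-fold and 483-fold for the origin recognition complex. For GINS these ratios were 4.35 and 90.7, for polymerase delta 3.07 and 31.4, for polymerase epsilon 4.73 and 164, and for RPA 4.97 and 448. In each library taken alone the ring ratios were 2.13 and 1.84 in EPN24 and 15.0 and 14.9 in EPN24-Cas13d. Over all 42 members the SD of log2 CPM per kb, with 0.1 added, was 1.26 and 1.21 in EPN24, and 3.30 in both EPN24-Cas13d libraries. The widest ratios rest on few reads of their lowest member, and 8 members had under 10 counts in at least 1 EPN24-Cas13d library. By library the EPN24-Cas13d ratio was 468 and 891 for the origin recognition complex and 112 and 312 for polymerase epsilon. For RPA it was 225 in replicate 2, while in replicate 1 RPA3 was at 0. EPN24 also held more background at olfactory receptor genes, 1.85 and 1.44 counts per kb against 0.179 and 0.141 in EPN24-Cas13d. The lowest subunits in EPN24 lay from 2.17 times that density for ORC4 to 20.1 times for MCM5. The part of this background in the widening was not tested. The widening itself was not tested either, and it was not set beside the spread of all tested genes.

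The order of the members for their length also differed at its top. In EPN24 the order was PCNA, CDT1, MCM7, MCM3, RPA2 and MCM2, and in EPN24-Cas13d it was CDT1, MCM7, MCM3, MCM2, POLD1 and MCM5. ORC4 was the lowest in both by its mean level. In EPN24-Cas13d replicate 1 alone, RPA3 (0) and ORC3 (0.117 CPM per kb) lay below ORC4 (0.162). RPA1 ranked 25 in EPN24 and 10 in EPN24-Cas13d by its mean level, and POLA2 38 and 16. Levels in EPN24 have a background, since olfactory receptor genes, which these cells should not express, held 1.85 and 1.44 counts per kb there and 0.179 and 0.141 in EPN24-Cas13d. Only ORC4 lay within 3 times that density in EPN24, at 2.17 times. PCNA stood at 93.8 times, and 10 of the 16 lower members lay under 6 times.

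The higher members were richer in G and C than the lower ones. The coding sequence of the 21 higher members had a median GC content of 52.7% (44.7% to 68.3%), that of the 5 not called 50.2% and that of the 16 lower ones 41.9% (36.8% to 47.7%). At the last codon position the medians were 64.7%, 60.1% and 40.6%. Of the higher members 19 exceeded each lower member in coding GC content. Across the 42 members Pearson's r between coding GC content and log2 fold change was 0.79 and Spearman's rho 0.81, values that share the same 4 libraries and have no independent replication. With the GC content of the longest transcript, r was 0.79, beside 0.46 across 19924 tested genes with a value. Coding length gave r = 0.43 and exon length r = 0.12 across the members. Members of like coding GC content still differed. The nearest to PCNA, at 46.5%, were MCM6 (46.2%, log2 fold change 0.72) and ORC6 (47.2%, -1.60). The nearest to RPA3, at 44.1%, were RFC3 (43.8%, -3.62) and GINS1 (43.7%, -3.41), followed by CDC6 (44.7%, 1.12).

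Among genes whose longest transcript had 45% to 50% GC, the 11 members had a median log2 fold change of 0.46, beside -1.08 for 3719 tested genes. At 50% to 55% it was 2.38 for 6 members and 0.21 for 3456 genes, and all 6 members were higher where 42.7% of the genes were. At 40% to 45% it was -1.38 for 14 members and -2.07 for 4003 genes. At 35% to 40% the 3 members lay below the genes, with -3.62 beside -2.97 for 2338 genes. None of these members was higher, where 2.74% of the genes were. The medians by GC content come from the main filter only. Over all GC contents the members' median was -0.07 beside 0.02 for all genes tested with the stricter filter. With background subtracted it was -0.09 beside -0.11. With the GC trend removed, 26 members were higher and 9 lower, where 69.2% of all tested genes were called, 28.9% higher and 40.2% lower. The 9 were ORC3, ORC4, ORC6, GMNN, GINS1, POLE2, PCNA, RFC3 and RPA3, with PCNA at -3.76 and RPA3 at -4.10. RPA1 was then the most positive, followed by MCM3 (3.39). The trend was taken on transcript GC content. After its removal Pearson's r between coding GC content and log2 fold change was still 0.52 across the 42 members, and Spearman's rho 0.55.

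**Figure D4:**
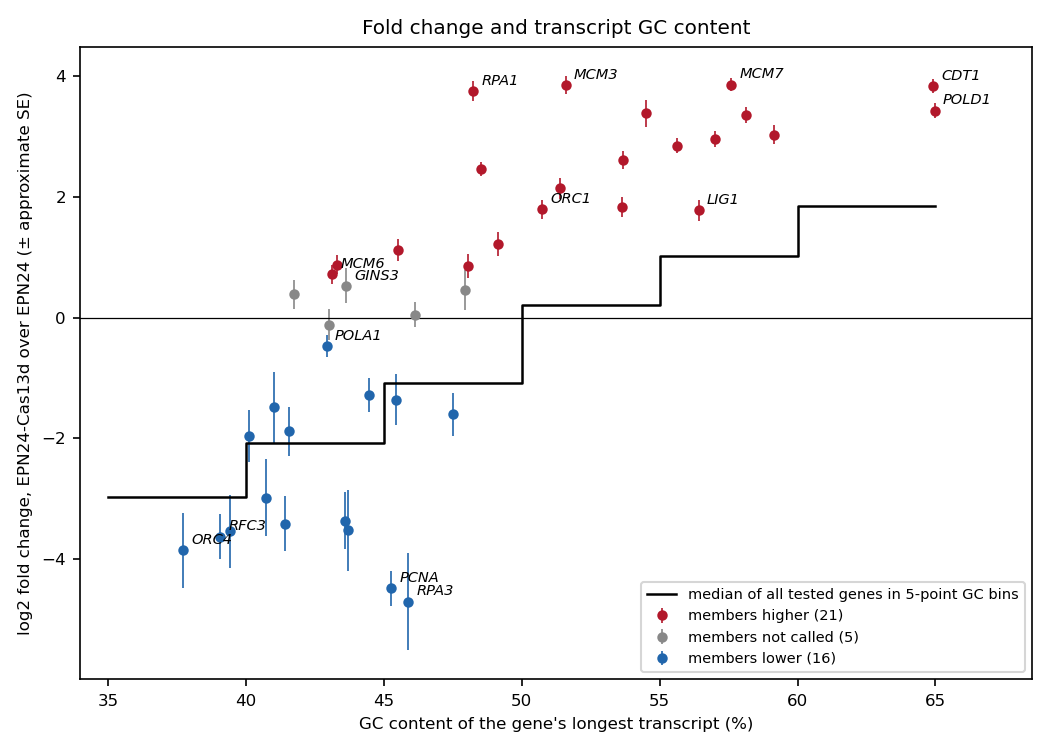
Log2 fold change (TMM scaling, error bar approximate SE) of the 42 members against the GC content of the gene's longest transcript in percent; red points are higher, blue lower and grey not called, and the black steps give the median of all tested genes in bins of 5 percentage points. Red points begin at about 43% GC and all points above 50% are red, while PCNA and RPA3 lie far under the steps at about 45% to 46%. The steps come from the main filter only.

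Genes around the machinery also went both ways, as did all tested genes, with 32.6% higher and 48.2% lower. The shares were 37.0% and 42.9% among protein-coding genes, and 58.4% and 2.33% among all tested genes with ERCC scaling. Of 20 firing and checkpoint factors 8 were higher, 9 lower and 3 not called, with a median of -0.25, or 15 higher and 0 lower with ERCC scaling. RECQL4, a helicase needed for origin firing, measured 367 and 389 CPM against 12.0 and 13.3 (4.90, SE 0.17), and LRWD1, which binds the origin recognition complex, 159 and 156 against 9.37 and 14.2 (3.74). Of 22 accessory fork factors 9 were higher, 9 lower and 4 not called, with a median of -0.14, or 17 higher and 0 lower with ERCC scaling. SSRP1, a subunit of the histone chaperone FACT, had a log2 fold change of 3.54 and CHAF1A, of chromatin assembly factor 1, of 1.93. Of 10 nucleotide supply genes 6 were higher, 2 lower and 2 not called, with a median of 1.22, or 8 higher and 0 lower with ERCC scaling. RRM2, a subunit of ribonucleotide reductase, had a log2 fold change of 2.15 and TK1, thymidine kinase, of 1.89. Without EPN24-Cas13d replicate 1, 6 accessory fork factors were lower in place of 9. With the GC trend removed the firing and checkpoint median turned to 0.41 (9 higher, 3 lower) and the accessory fork median to 0.52 (10 higher, 3 lower). The nucleotide supply median was 0.76 (5 higher, 3 lower) in that setting, where 28.9% of all tested genes were higher and 40.2% lower. Without a filter the first 2 medians turned to 0.11 and 0.22, beside -2.55 for all genes tested there. Genes tested both with and without the filter moved by a median of 0.36. The accessory fork median turned to 0.12 without EPN24-Cas13d replicate 2, beside -1.15 for all genes tested there. Under the stricter filter the medians were -1.11, -0.41 and 0.37, beside 0.02 for all genes tested there.

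**Figure D5:**
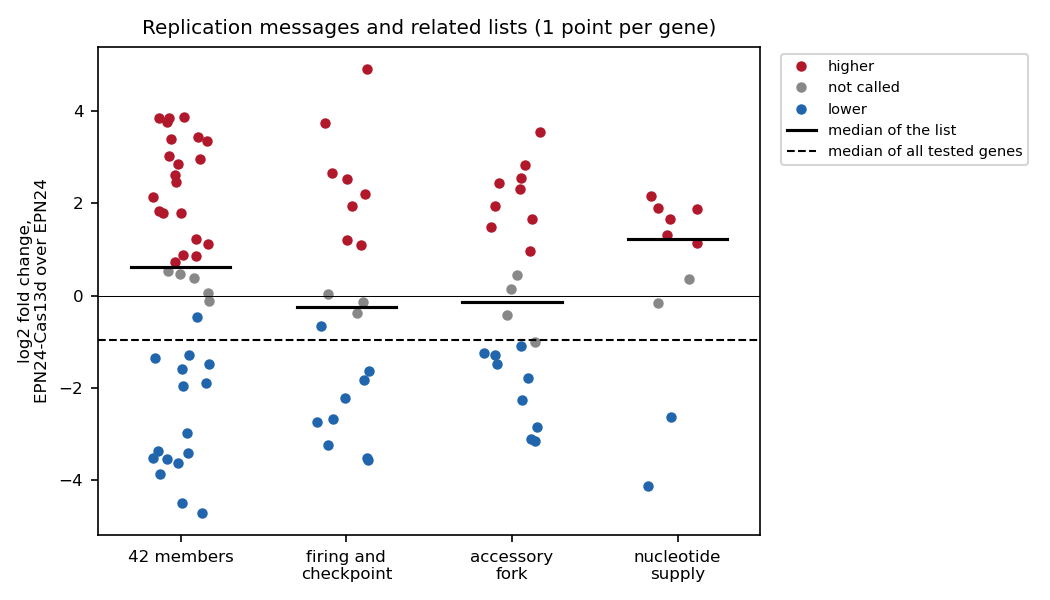
Log2 fold change (TMM scaling) of each gene among the 42 members and in 3 related lists, 1 point per gene; red points are higher, blue lower and grey not called, solid bars give each list's median and the dashed line the median of all tested genes, -0.96. The medians are 0.62, -0.25, -0.14 and 1.22, all above the dashed line, and each list holds points on both sides of 0. With ERCC scaling 1 of the members and none of the other genes shown was called lower, where 2.33% of all tested genes were.

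The authors' deposited table holds a value for all 42 members and calls 30 higher, 0 lower and 12 not at an adjusted p of 0.05, where it calls 30.5% of 39794 genes higher and 0.201% lower. In the authors' deposited table the median log2 fold change was 3.96 for the members and 0.98 for those genes, and CDT1 was at 7.16, beside 7.20 here with ERCC scaling.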

How the data were processed

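Total RNA of cleared supernatant was sequenced, and the authors deposited estimated counts per gene, some with fractions, made with STAR 2.7.10a and featureCounts 2.0.1 on hg38 per the submitters' processing notes. Neither the annotation nor the strand setting is given in the sources used here, so antisense partners were not resolved. The deposited exon length (other unit) is in bp. The authors' DESeq2 1.36.0 table holds normalized count means (signal), log2 fold changes, Wald statistics (score) and p-values, per the file headers.

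Of 61640 rows 5 broken ones were left out. Rounded counts went into edgeR 4.0.16 under R 4.3.3 (filterByExpr, TMM without ERCC, robust quasi-likelihood test, Benjamini-Hochberg adjustment), and SEs were approximated as the size of the log2 fold change over the square root of F. Alternatives used DESeq2 1.42.0 and limma 3.58.1. Intervals and floors treat each count as a separate read and cover no spread between libraries. PCR copies carry no molecular identifiers, and most counts were even, as when both mates are counted. Where a fragment was counted more than once, the intervals are too narrow and the bound from the floor is too strong. GC content and coding sequences come from GENCODE 29 (GRCh38), matched by gene ID without version, for all 42 members and 97.3% of tested genes. The GC trend is a lowess curve over all tested genes. The stricter filter asks for at least 10 counts and 10 CPM in at least 2 libraries. The background is the olfactory receptor density per kb. Sequences of members on chromosome 8 were left out. Fits were tested on simulated data.

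Members, lists and tests were chosen with earlier results of these data known. Every member is named; values per library are given in each role for the largest and smallest log2 fold change and the 2 highest levels per length in either group. For the other lists the 2 genes of smallest p are named.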

Additional observations from a re-analysis of the deposited data

How the results depend on the processing

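Of 42 members, 25 stayed on the same side of the threshold in all alternatives other than ERCC scaling, and 17 did so with ERCC scaling included. DESeq2 size factors, limma-voom and the DESeq2 Wald test turned no member's direction, though the Wald test ended the calls of ORC5, POLA1 and RFC4. With ERCC totals 33 members were higher and 1 lower, the median was 3.99 and the ratio of summed levels 58.5. ORC2 (1.39), ORC5 (1.88), ORC6 (1.77), POLA1 (2.89), PRIM1 (0.32), PRIM2 (1.49), POLD3 (3.25), RFC4 (1.99) and RFC5 (2.06) reversed. With total counts the median was 0.06 and the summed ratio 3.98, and GINS3 (-0.03), GINS4 (-0.11), POLE3 (-0.52) and RFC1 (-0.19) reversed. Without a filter the median was 0.98 and POLD3 was at 0.24, where genes tested both ways moved by a median of 0.36. With the stricter filter 9669 genes were called in place of 16556, since fewer genes were tested, the median was -0.07, and MCM6 (-0.14), GINS3 (-0.33), GINS4 (-0.40), POLE3 (-0.81), RFC1 (-0.47) and RPA2 (-0.00) reversed. Genes tested both ways moved by a median of -0.86 there, by -0.57 with total counts and by -0.55 with background subtracted. In that last setting the median was -0.09, with MCM6 at -0.18, GINS3 at -0.13, POLE3 at -0.85, RFC1 at -0.30 and RPA2 at -0.04. With counts halved the median was 0.22, POLE3 was at -0.36 and RFC1 at -0.02, where genes tested both ways moved by a median of -0.40. With the GC trend removed 9 members were lower and the median was 1.03. ORC5 (0.09), POLA1 (0.70) and POLD3 (1.03) reversed, and 16 members still called moved by more than 1.5 times. The cause was not tested for the remaining changes.

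Leaving out 1 library at a time gave a members' median of 0.46 to 0.76, beside -1.17 to -0.42 for all tested genes. POLE3 ran from -0.13 without EPN24 replicate 1 to 0.28 without EPN24-Cas13d replicate 1, and was at -0.07 without EPN24-Cas13d replicate 2. With the replicate block 21 members were higher and 14 lower, where 6545 and 8496 of 20476 tested genes were. The calls of ORC5 (-1.45) and POLA1 (-0.47) ended in that setting. Same-numbered libraries deviated together with a correlation of -0.0041 over 20476 genes, so the numbers were not taken as pairs. Depth limits the members near the floor of 3 counts, ORC3, ORC4, POLE2, PRIM1 and RPA3.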
